A study of Mus musculus with 4 samples.

Results

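The slow-fibre contractile genes described here are 10 genes of the slow-twitch contractile apparatus and its oxygen and calcium supply: Myh7, Myl2, Myl3, Tnnt1, Tnni1, Tnnc1, Tpm3, Atp2a2, Mb and Myoz2. They were named by a list, and every probe set that the platform annotation assigns to 1 of them was taken. Of the 10 genes, 9 were measured, by 13 of the 12422 probe sets tested, and Myoz2, a Z-disc protein, was not analysed here for its level. The genes were selected on values of these arrays: a gap between the wild-type pools had been seen in slow-fibre genes. The levels below are therefore a description, and no test of the gap between pools is given.

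The arrays came from combined gastrocnemius and soleus muscle of untreated male mice aged 6.5 months on a C57BL/6x129 background, fed chow and water freely. The wild-type group (WT) was Crhr2+/+ and the knockout group (KO) was Crhr2-/-, lacking the receptor for urocortin peptides. Each of the 4 arrays (Affymetrix U74Av2, 2 per genotype) read a pool of RNA from 2 mice, so each genotype stands on 4 mice. In the labels genotype and tissue are entered in each other's field, so groups were read from the sample titles. The labels do not give the share of each muscle in a pool, and p-values measure the spread between pools, not between mice.

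Skeletal muscle is a mosaic of slow and fast fibres. Slow fibres contract with the myosin heavy chain Myh7, carry their own isoforms of the light chains, troponins and tropomyosin, and rely on oxidative metabolism. In the mouse the soleus is rich in slow fibres and the gastrocnemius is mostly fast, and the slow isoforms of myosin, its light chains and troponin C are also those of heart ventricle or developing heart. Values below are the deposited linear signal intensities in arbitrary units, each probe set on its own scale, and differences are on the scale log2(intensity + 14), where a difference of 1 is a doubling and 14 is a pseudocount that damps dim probe sets.

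Because most of these genes moved together between pools, the 250 bases before an annotated start site are printed for 4 of them, from RefSeq on mouse build GRCm38.p6. They are the myosin heavy chain Myh7 (chr14:54994627-54994876, minus strand), the light chain Myl3 (chr9:110763428-110763677, plus strand) and troponin C, Tnnc1 (chr14:31208062-31208311, plus strand), with myoglobin, Mb (chr15:77022788-77023037, minus strand), which departed from the common pattern. Each reads 5′ to 3′ in the direction of its gene, and capitals mark matches on either strand to the motifs named in the next paragraph other than the E-box.
Myh7: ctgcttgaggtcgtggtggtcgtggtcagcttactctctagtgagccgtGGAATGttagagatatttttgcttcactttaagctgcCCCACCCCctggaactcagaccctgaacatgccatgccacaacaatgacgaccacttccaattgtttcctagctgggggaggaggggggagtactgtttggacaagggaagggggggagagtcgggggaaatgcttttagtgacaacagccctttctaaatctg
Myl3: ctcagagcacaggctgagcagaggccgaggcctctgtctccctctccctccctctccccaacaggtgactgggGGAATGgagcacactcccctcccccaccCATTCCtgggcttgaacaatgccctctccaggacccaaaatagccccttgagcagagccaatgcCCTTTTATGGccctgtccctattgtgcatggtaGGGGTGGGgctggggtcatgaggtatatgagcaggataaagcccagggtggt
Tnnc1: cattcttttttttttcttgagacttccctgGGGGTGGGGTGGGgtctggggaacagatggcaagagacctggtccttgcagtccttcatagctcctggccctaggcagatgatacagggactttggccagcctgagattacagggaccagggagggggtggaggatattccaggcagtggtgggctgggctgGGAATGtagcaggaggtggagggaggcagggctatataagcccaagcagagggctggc
Mb: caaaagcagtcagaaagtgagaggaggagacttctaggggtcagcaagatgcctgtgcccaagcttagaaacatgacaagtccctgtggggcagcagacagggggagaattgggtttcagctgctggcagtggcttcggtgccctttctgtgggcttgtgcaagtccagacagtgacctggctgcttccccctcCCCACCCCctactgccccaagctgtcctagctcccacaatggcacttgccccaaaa

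A start site was found for 9 of the 10 genes, Atp2a2 being the other, with 15 start sites in all, some of them of 1 gene and overlapping. The CCAC box (CCCACCCC), an element described in the myoglobin promoter, was present before 9 of the 15 start sites and in 6 genes, against 8.52% of 32851 annotated start sites. The MCAT element (CATTCC), bound by TEAD factors, was present before 3 of 15, in Myh7, Myl3 and Tnnc1, against 12.6%. Those 3 stretches are the ones printed above beside Mb, so the printed sequences show this element more often than the 15 do. The E-box (CANNTG), bound by myogenic factors such as MyoD, was present before all 15, against 66.2%. A CArG box, bound by serum response factor, was found in Myl3 only and a MEF2 site in Myoz2 only, against 1.47% and 2.92%. Letters of a TATA box (TATAAA) were found for Myl2 and Tnnt1, against 12.4%. They lay at -30 to -25 from the start site in Tnnt1, but at -216 to -211 and on the opposite strand in Myl2. No matches of different motifs overlapped each other in the 15 stretches. These are letter matches on both strands, with no measure of binding.

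Transcripts of the thick filament were all lowest in the same pool, WT replicate 1. Myh7, the slow myosin motor, read 1968 and 3666 across the WT pools and 3452 and 2872 across the KO pools. Both KO pools thus lay between the WT pools, and the genotypes overlapped. Myl2, the slow regulatory light chain, read 2921 and 4431 across the WT pools and 3699 and 3218 across the KO pools. Myl3, the slow essential light chain, read 1549.8 and 2693 across the WT pools and 2381 and 2063 across the KO pools. In both light chains WT replicate 1 was lowest, WT replicate 2 highest, and KO replicate 1 stood above KO replicate 2, the same order as in Myh7. WT replicate 2 over WT replicate 1 was 1.86-fold for Myh7, 1.52-fold for Myl2 and 1.74-fold for Myl3, and KO replicate 1 over KO replicate 2 was 1.20, 1.15 and 1.15-fold.

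The troponin complex, which makes thin filaments respond to calcium, followed the same order with 1 exception. Tnnc1, the calcium-binding subunit of slow and cardiac muscle, read 742 and 1567 across the WT pools and 1304 and 1052 across the KO pools. Its ratio between WT pools, 2.11-fold, was the largest of the 9 genes. Tnni1, the slow inhibitory subunit, read 1013 and 1783 across the WT pools and 1569.8 and 1356 across the KO pools, with 1.76-fold between the WT pools. Tnnt1, the slow subunit that binds tropomyosin, read 2338 and 3999 across the WT pools and 4153 and 3255 across the KO pools on its brighter probe set. Here KO replicate 1, not WT replicate 2, was the highest pool, 0.05 above WT replicate 2 on the log2 scale, and the ratio between WT pools was 1.71-fold. Its dimmer probe set read 241 and 309.8 across the WT pools and 357 and 271 across the KO pools, in the same order of pools as the brighter one.

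Tropomyosin, the calcium pump and myoglobin differed in how closely they kept to this order. Tpm3, the slow-fibre tropomyosin gene, which also makes nonmuscle forms, read 1301 and 2324 across the WT pools and 2265 and 2017 across the KO pools, so WT replicate 1 stood apart below the other 3 pools, and KO replicate 2, the next lowest, lay 0.63 above it on the log2 scale. Atp2a2, the calcium pump of slow fibres and heart, read 576 and 907 across the WT pools and 889.6 and 624 across the KO pools. Its pools fell into pairs across the genotypes, WT replicate 2 with KO replicate 1 and WT replicate 1 with KO replicate 2, and its 1.42-fold ratio between the KO pools was the largest of the 9 genes. Mb, the oxygen-binding protein of oxidative fibres, read 7119 and 8593 across the WT pools and 6415 and 8022 across the KO pools. Mb was the only one of the 9 brighter probe sets in which KO replicate 2 exceeded KO replicate 1 and in which WT replicate 1 was not the lowest pool. Its highest and lowest pools differed by 1.34-fold, the smallest range of the 9.

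**Figure D1:**
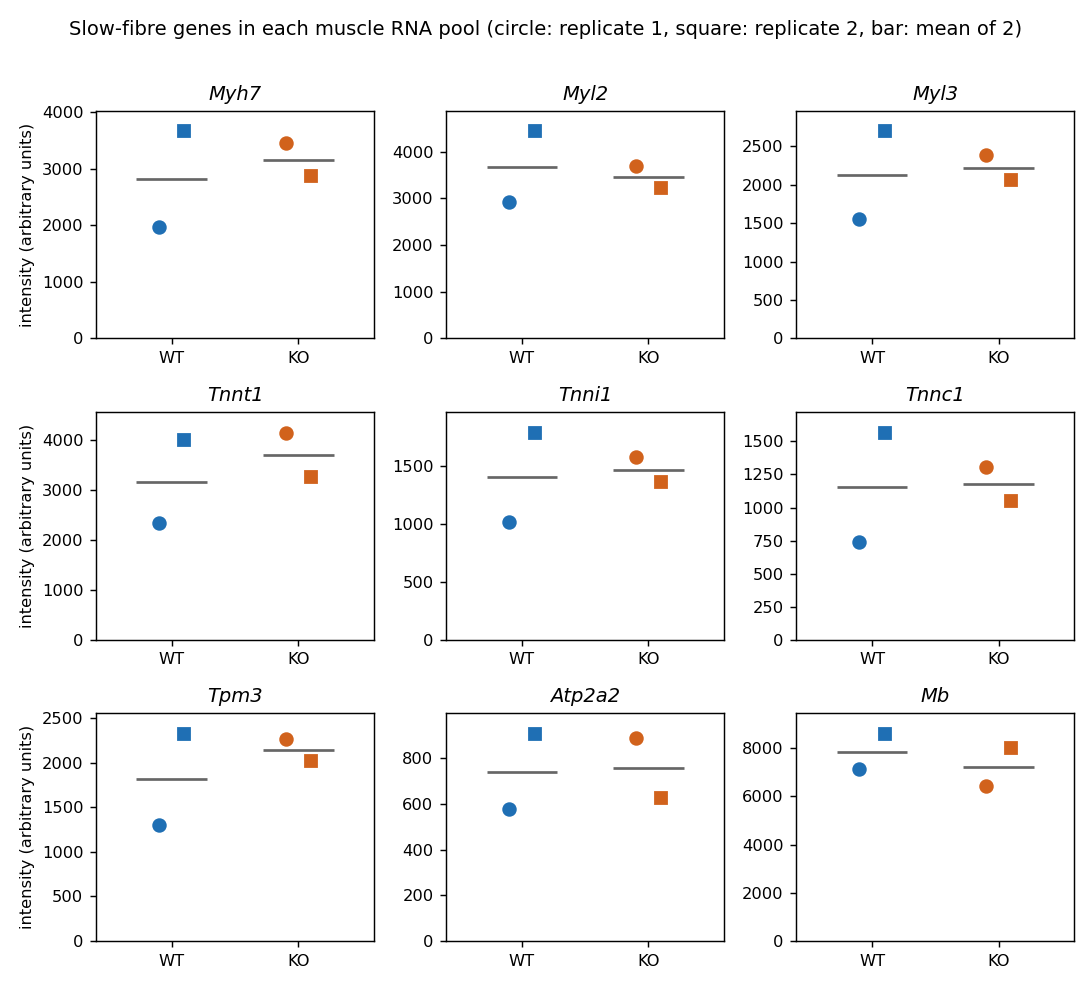
Intensity (arbitrary units, linear axis from 0) of the 9 measured slow-fibre genes in each RNA pool, brighter probe set of each gene, with circles for replicate 1, squares for replicate 2 and bars for the mean of 2 arrays. In 8 of 9 genes WT replicate 1 is the lowest pool and both KO pools lie above it; Mb is the exception.

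The remaining probe sets of these genes were dim. The second Myh7 probe set read 13.3 to 25.4, the second Mb probe set 16.2 to 26.1 and the second Tpm3 probe set 4.33 to 18.0, whose means exceeded those of only 23.5%, 26.5% and 12.1% of probe sets. The second Myh7 set was lower in WT replicate 2 (13.4) than in WT replicate 1 (25.4), and the second Tpm3 set was lowest in KO replicate 1. The second Mb set ran from 16.2 in WT replicate 1 through 23.2 in both KO pools to 26.1 in WT replicate 2, with WT replicate 1 lowest as in 8 of the 9 brighter sets, though not in that of Mb. The names of both Myh7 probe sets carry the suffix that Affymetrix gives to sets shared within a gene family, and those of the bright Tnnt1 and Atp2a2 sets the suffix for sets shared by several transcripts. Signal of the closely related cardiac myosin Myh6 in the Myh7 sets therefore cannot be told apart from that of Myh7. The probe set of Myh6 itself read 43.7 and 46.7 across the WT pools and 34.4 and 53.0 across the KO pools, with no gap like that of Myh7.

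Across the 9 genes, 1 probe set each, the median difference of WT replicate 2 minus WT replicate 1 was 0.79, from 0.27 for Mb to 1.06 for Tnnc1. Over all 12422 probe sets that median was 0.01, and over the 1463 with a mean intensity of at least 500 it was 0.02. WT replicate 2 was the higher pool in 9 of 9 genes, against 51.8% of all probe sets and 55.7% of the bright ones. It was at least 1.5 times WT replicate 1 in 8 of 9, against 16.9% of all probe sets, many of them dim, and 1.64% of the bright ones. That is 24 bright probe sets, 8 of which belong to the slow-fibre list. A difference as large as that of Tnnc1 was met by 0.273% of bright probe sets, as large as that of Myh7 by 0.410%, and as large as that of Mb by 9.30%. These shares describe the gap for which the genes were taken up, and nothing is read from them.

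The KO pools of the slow-fibre genes lay closer together. KO replicate 2 minus KO replicate 1 had a median of -0.21 over the 9 genes, from -0.50 for Atp2a2 to 0.32 for Mb, and of 0.04 over all probe sets. KO replicate 2 was the lower pool in 8 of 9 genes, against 45.6% of all and 53.4% of bright probe sets. A ratio of at least 1.5 between KO replicate 1 and KO replicate 2 was reached by 0 of 9, against 14.2% of all and 2.26% of bright probe sets. WT replicate 1 was the lowest of the 4 pools in 8 of 9 genes, against 25.4% of all and 23.5% of bright probe sets. The full order from WT replicate 1 through KO replicate 2 and KO replicate 1 to WT replicate 2 was seen in 7 of 9 genes, against 3.55% of all and 3.35% of bright probe sets; Tnnt1 and Mb were the exceptions. The genes were taken up for the gap between the WT pools, which favours both of these patterns, so nothing is read from their counts. With the replicate numbers being only names, the gap inside WT was wider than that inside KO for 8 of 9 genes. That too follows in part from the choice of genes, and this difference between genotypes was not tested. In muscle RNA of this kind, fewer slow fibres and less slow-fibre RNA per fibre cannot be told apart.

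**Figure D2:**
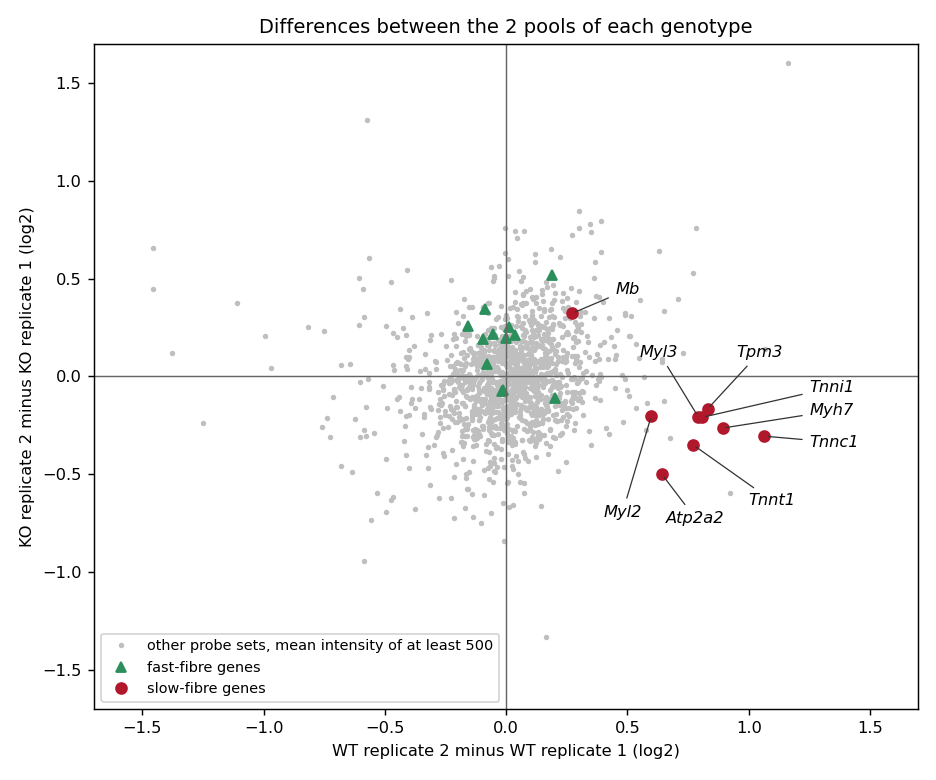
Difference between the 2 WT pools (horizontal, log2) against the difference between the 2 KO pools (vertical, log2) for 1431 other probe sets with a mean intensity of at least 500 (grey dots, 11 more lie outside the axes), 12 fast-fibre genes (triangles) and the 9 slow-fibre genes (circles). All slow-fibre genes but Mb lie together at the lower right, while the fast-fibre genes lie near 0 on the horizontal axis.

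Between genotypes, none of the slow-fibre genes passed the test. With all 4 arrays, 7 of the 9 genes had a higher mean in KO and 2 a lower one, against 50% of all probe sets with a higher mean in KO. The median of KO minus WT was 0.12, and 0.00 over all probe sets. The limma test, two-sided and adjusted over all 12422 probe sets by Benjamini-Hochberg, called 0 of the 13 probe sets, against 0% of all probe sets (0 called). At an unadjusted p under 0.05 it had 0 of 13, against 5.43% of all. In 0 of 9 genes did the KO and WT pools stand apart without overlap, against 34.6% of all probe sets and 37% of the bright ones.

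The single values were small beside the spread between pools. Tpm3 had the largest difference, 1812 ± 724 in WT and 2141 ± 176 in KO (SD, n = 2 each), with a log2 difference of 0.30 ± 0.26 (SE) and a limma adjusted p of 0.908. Tnnt1 stood at 3169 ± 1174 in WT and 3704 ± 635 in KO (0.26 ± 0.26, limma adjusted p = 0.913), and Myh7 at 2817 ± 1200.4 and 3162 ± 410.3 (0.23 ± 0.28, limma adjusted p = 0.925). For all 3 the SD between the WT pools exceeded the difference between the genotype means. Myl3, Tnni1 and Tnnc1 each differed by 0.12, with standard errors of 0.25, 0.26 and 0.33. Atp2a2 differed by 0.04 ± 0.25. Myl2 and Mb had the lower mean in KO, at -0.06 ± 0.20 and -0.12 ± 0.16. With 2 against 2 arrays an exact two-sided permutation test cannot go below p = 0.333.

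Which WT pool served as the comparison set the sign. Without WT replicate 1, all 9 genes had the lower mean in KO (median -0.28), and both KO pools lay below WT replicate 2 in 8 of 9, against 33.9% of all probe sets. Without WT replicate 2, all 9 had the higher mean in KO (median 0.52), and both KO pools lay above WT replicate 1 in 8 of 9, against 33.7%. Myh7 went from 0.23 to -0.22 without WT replicate 1 and to 0.67 without WT replicate 2, and Tnnc1 from 0.12 to -0.42 and 0.65. With 3 pools non-overlap is common: 8 of 9 genes met it with WT replicate 1 left out and 8 with WT replicate 2 left out, but 0 with KO replicate 1 left out and 2 with KO replicate 2 left out, against 66.7%, 66.5%, 69.5% and 66.5% of all probe sets. The genes were taken up for the gap between the WT pools. The counts without a WT pool largely follow from that choice, and nothing is read from them. Leaving out a KO pool moved the median less, to 0.01 without KO replicate 1 and to 0.27 without KO replicate 2. No gene passed the limma test with an array left out (smallest adjusted p = 0.886 among the 9 brighter probe sets and 0.800 among all 13), where the lone array of a genotype is assumed to vary like the others.

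**Figure D3:**
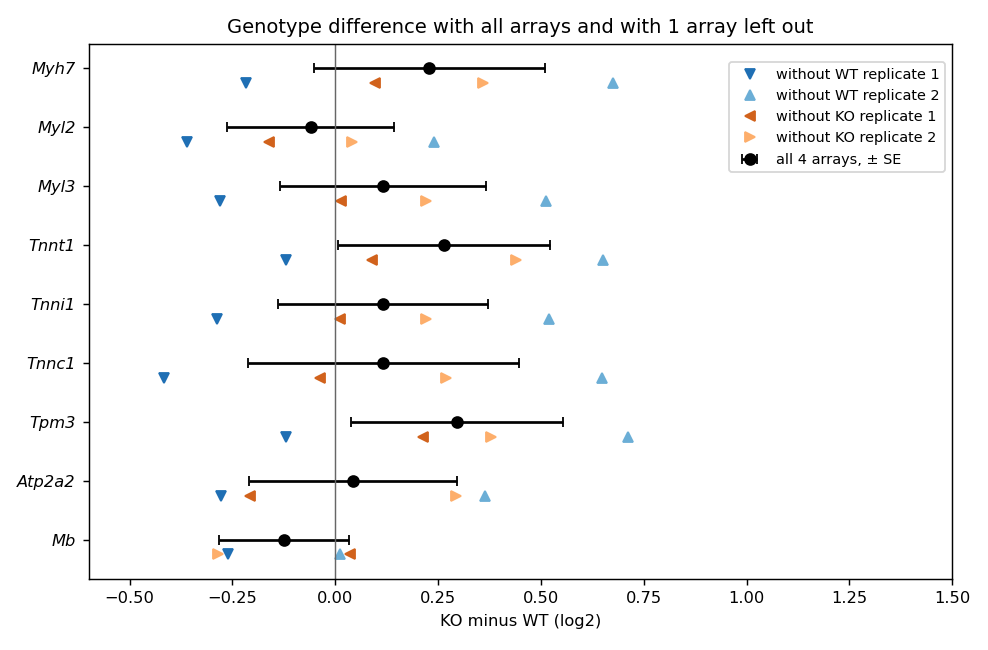
KO minus WT on the log2 scale for each of the 9 slow-fibre genes: black circles with bars give the fit of all 4 arrays ± SE, and triangles the fit with 1 array left out. Every gene lies below 0 without WT replicate 1 and above 0 without WT replicate 2.

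Genes of fast fibres differed less between the WT pools. Of 15 listed fast-fibre genes 14 were measured, and their median of WT replicate 2 minus WT replicate 1 was -0.02, with 5 higher and 9 lower. Their KO replicate 2 minus KO replicate 1 had a median of 0.20, with 11 higher and 3 lower. Myh4, the fastest myosin, read 19419 and 18195 across the WT pools and 18679 and 21337 across the KO pools, with ranges that overlap between genotypes. Its highest pool was 1.17-fold its lowest, against 1.86-fold for Myh7. Myh2, a fast oxidative myosin, was dim, at 4.49 and 11.9 across the WT pools and 6.02 and 12.0 across the KO pools, so its difference of 0.49 between WT pools rests on low signal. Tpm1, the fast-fibre tropomyosin gene, read 357 and 294 across the WT pools and 298 and 308 across the KO pools. Between genotypes 8 of the 14 had the higher mean in KO and 6 the lower (median 0.02), and 0 of 14 passed in either direction.

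Each slow isoform was set beside its fast counterpart by the change between pools, since levels of different probe sets are not on 1 scale. WT replicate 2 minus WT replicate 1 was larger for the slow gene than for its fast counterpart in all 8 pairs measured. The slow genes had been taken up for that gap, so nothing is read from this count. For troponin C the difference was 1.06 for Tnnc1 and -0.08 for Tnnc2, for troponin I 0.81 for Tnni1 and -0.01 for Tnni2, and for troponin T 0.77 for Tnnt1 and -0.02 for Tnnt3. The pumps differed by 0.64 for Atp2a2 and -0.05 for Atp2a1, and the essential light chains by 0.79 for Myl3 and -0.16 for Myl1. On the brightest probe set of each gene the regulatory light chains were the closest pair, at 0.60 for Myl2 and 0.19 for Mylpf. Another bright Mylpf probe set stood at -0.16 between the WT pools and -0.11 between the KO pools. The ranking of pairs therefore depends on the probe set in both genotypes. Between the KO pools the slow gene lay below its counterpart in all 8 pairs. On the brightest probe sets this was least for troponin I (-0.21 for Tnni1 and -0.07 for Tnni2) and most for the pumps (-0.50 for Atp2a2 and 0.22 for Atp2a1). The myosins stood at 0.89 for Myh7 and -0.09 for Myh4 between the WT pools, and at -0.26 and 0.19 between the KO pools. In both genotypes the slow and fast isoforms of these pairs thus differed in their change between pools, which is a description and was not tested.

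**Figure D4:**
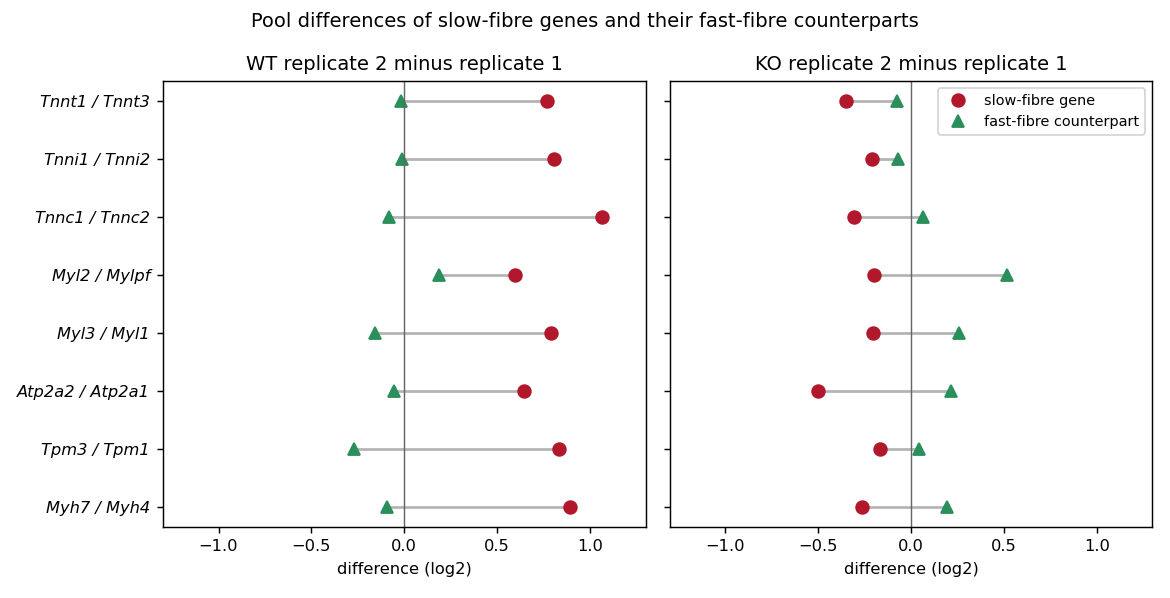
Difference between pools (log2) of 8 slow-fibre genes (circles) and their fast-fibre counterparts (triangles), WT replicate 2 minus replicate 1 on the left and KO replicate 2 minus replicate 1 on the right. The slow gene lies to the right of its counterpart in every WT pair and to the left in every KO pair.

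Other genes that accompany slow or oxidative fibres also differed less between the WT pools. A list of 12 slow-fibre companions included genes of sarcoplasmic reticulum, Z-disc and stress proteins and the tropomyosin gene Tpm2. Of these, 7 were measured, with a median difference between WT pools of 0.07 and none reaching 1.5-fold. Tpm2 read 4289 and 4663 across the WT pools and 4406 and 4555 across the KO pools (difference between WT pools 0.12). Fhl1, a LIM protein of slow muscle, read 6253 and 7615 across the WT pools and 6094 and 6547 across the KO pools (difference between WT pools 0.28). Sln, which inhibits the calcium pump, was dim at 8.32 to 17.1. Of 16 oxidative genes 15 were measured, with a median of 0.09 between the WT pools, 10 higher and 5 lower. Fabp3, the muscle fatty acid-binding protein, read 2774 and 3674 across the WT pools and 2299 and 2597 across the KO pools, and Ucp3, a mitochondrial uncoupling protein, read 433 and 309 across the WT pools and 327 and 412 across the KO pools. Between genotypes 1 of 7 companions and 4 of 15 oxidative genes had the higher mean in KO (medians -0.13 and -0.06), and 0 passed in either list.

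The 6 genes outside the list whose 4-pool profile lay closest to the median profile of the slow-fibre genes were Sspn, Tradd (an adaptor of a TNF receptor), Mir686 (by the annotation of its probe set, which need not read the microRNA), Idh2, Lrpprc (a mitochondrial RNA-binding protein) and Plk3 (a kinase). Closeness was the Euclidean distance between log2 profiles centred on their mean over 4 pools, among 1276 bright probe sets with 1 gene symbol. Their distances were 0.23 to 0.29, where the slow-fibre genes had a median of 0.16 and a largest of 0.61, for Mb. No candidate came as close as the median slow-fibre gene. The profile is the median of the slow-fibre genes themselves, so they lie close to it by construction and nothing is read from this. Of the 1276 candidates, 538 lay within the largest distance of a slow-fibre gene. With 4 pools such likeness carries little information. Sspn, sarcospan of the dystrophin complex, read 721 and 1030.0 across the WT pools and 992 and 925 across the KO pools. Idh2, the mitochondrial isocitrate dehydrogenase, read 1089 and 1815 across the WT pools and 1542 and 1674 across the KO pools, and departed from the slow-fibre order in its KO pools. Tradd, Mir686 and Plk3 departed as well, with KO replicate 1 as the highest pool, as in Tnnt1. In Plk3 both KO pools lay above both WT pools, which no slow-fibre gene showed. Sspn and Lrpprc kept the order.

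Markers of other tissues also differed between the WT pools, in both directions, and no listed marker was at 0 in any array. Of 12 lymphocyte markers 11 were lower in WT replicate 2, against 48.2% of all probe sets, and their summed intensity was 5558 and 3436 across the WT pools and 3389 and 4730.1 across the KO pools. Cd3g, a subunit of the T-cell receptor complex, read 117 and 33.5 in WT, and Igha, the immunoglobulin A heavy chain, 98.4 and 14.1. Of 8 adipocyte markers 7 were lower in WT replicate 2 (summed intensity 11376 and 7943 in WT, against 8619 and 6159 in KO), led by Retn, a hormone of mouse fat, at 568 and 182, and Cidea, a lipid droplet protein, at 38.6 and 15.2. Of 11 liver genes 9 were higher in WT replicate 2 and 7 at least 1.5 times as high (summed 806 and 1953 in WT, against 371 and 482 in KO), with Alb, serum albumin, at 230.0 and 1016 and Apoa2, a plasma apolipoprotein, at 13.8 and 83.2. Of 8 genes of the nonmuscle and smooth muscle cytoskeleton 6 were lower in WT replicate 2 (summed 2386 and 1995 in WT, against 2053 and 2421 in KO). The nonmuscle myosin Myh10 read 23.3 and 6.48 in WT, and the smooth muscle myosin Myh11 261 and 182. Blood and exocrine pancreas genes had medians of -0.27 and -0.12 between the WT pools, over 5 and 9 genes, with summed intensities of 7693 and 6411 and of 1737 and 1662. In KO these sums were 9815 and 8679.9 for blood, and 12884 and 3963 for pancreas. All 9 pancreas genes were lower in KO replicate 2, as were 8 of the 9 slow-fibre genes, and all 9 had the higher mean in KO (median 2.14, limma smallest adjusted p = 0.803). In WT, Alas2, of heme synthesis in red cells, read 146 and 60.7, and the red-cell membrane gene Epb42 read 7.91 and 16.6. The pancreatic enzyme Cel read 110.1 and 72.3 in WT, and Prss2, a trypsin, 242 and 168. The part of these other tissues in the slow-fibre gap was not tested.

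Heart muscle shares most of these slow genes, so cardiac genes were read beside them. Of 11 cardiac markers 7 were higher and 4 lower in WT replicate 2 (median 0.07). Their summed intensity was 3941 and 3836 across the WT pools and 5323 and 4659 across the KO pools. Most of it came from the probe set of the cardiac actin Actc1, which adult skeletal muscle also makes at a low level. That set carries the gene family suffix, so signal of related actins cannot be told apart. It stood at -0.11 between the WT pools and -0.29 between the KO pools, and another bright Actc1 set at -0.56 and -0.74. The atrial peptide Nppa read 174 and 222 in WT, with 88.8 and 155 in KO, and Myl4, an atrial and embryonic light chain, 131 and 162 in WT, with 67.9 and 181 in KO. Both were higher in WT replicate 2, as the slow-fibre genes were, but higher in KO replicate 2. The cardiac troponin T, Tnnt2, read 80.1 and 76.3 in WT, with 35.0 and 52.7 in KO. The cardiac troponin I, Tnni3, read 8.53 and 9.64 in WT, with 51.3 and 43.4 in KO. Between genotypes 2 of the 11 stood apart with KO higher and 2 with KO lower, against 34.6% of all probe sets apart in either direction. The limma test called 0 of the 11. Across all 4 pools the peptide Nppb read 7.86 to 19.0, the transcription factor Nkx2-5 8.82 to 14.2 and the atrial light chain Myl7 4.33 to 9.30. The genes farthest apart between the WT pools were the cardiac calcium channel Ryr2, at 4.45 and 21.7, and the transcription factor Gata4, at 18.9 and 79.9. The part of heart genes in the slow-fibre gap was not tested.

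Array medians were 67.6 to 71.2, and medians on the log2 scale lay within 0.06 of each other. Correlations between arrays across probe sets, which are not replicates, were 0.960 to 0.966 whatever the genotype, and no probe set had an identical value on 2 arrays. Ratios of 3′ to 5′ control signals for actin, a measure of RNA quality, were 0.624 and 0.686 across the WT pools and 0.729 and 0.866 across the KO pools. For Gapdh they were 0.889 and 0.914 across the WT pools and 1.04 and 0.988 across the KO pools. The targeted gene Crhr2 read 154 and 192 across the WT pools and 100.4 and 75.1 across the KO pools on its brighter probe set (limma adjusted p = 0.803), and its genotypes overlapped on the dimmer one. Whether its probes read the deleted exons was not checked.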

How the data were processed

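The labels' protocols describe biotin-labelled RNA from pools of 2 mice, with 4 mice for each genotype. Values are linear signal intensity for each probe set, as deposited by the authors. Their trimmed mean was 200.2 on all 4 arrays, so they had been scaled before deposit. For probe summary, background and detection, the method is not given in these sources. The number of arrays limits the precision.

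From 12488 probe sets, 66 controls were left out. Values were taken as log2(intensity + 14), 14 being 20% of the table's median, and fitted by genotype with limma 3.58.1 in R 4.3.3 (lmFit, eBayes with intensity trend, Benjamini-Hochberg over 12422 probe sets, threshold 0.05). The fit was tested on simulated data. In the platform annotation 10833 probe sets have 1 gene symbol, 396 several and 1193 none. Of the 10833, 10817 were found by gene identifier in the GRCm38.p6 gene table, used for names. A gene was read from the probe set with the highest mean.

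The members and lists were chosen with earlier results of these data known. Named genes were all members, their fast counterparts, in each other list the 2 genes with the WT pool difference farthest from 0, and the 6 closest profiles. Crhr2, Ighm, Scd1, Hba-a1, Tpm2 and cardiac genes other than Ryr2 and Gata4 were named after their values were seen. Alternatives were other pseudocounts, scalings, filters, probe set rules, a replicate block and each array left out.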

Additional observations from a re-analysis of the deposited data

How the results depend on the processing

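Leaving out 1 array decided the sign of KO minus WT in every slow-fibre gene. The range over the 4 fits was -0.22 to 0.67 for Myh7, -0.36 to 0.24 for Myl2, -0.28 to 0.51 for Myl3, -0.12 to 0.65 for Tnnt1, -0.29 to 0.52 for Tnni1, -0.42 to 0.65 for Tnnc1, -0.12 to 0.71 for Tpm3, -0.28 to 0.36 for Atp2a2 and -0.29 to 0.037 for Mb. The lowest value came without WT replicate 1 and the highest without WT replicate 2, except in Mb, where they came without KO replicate 2 and without KO replicate 1. The count of genes whose genotypes do not overlap, 0 of 9 with all arrays, ranged from 0 to 8 with 1 array left out, which needs 3 arrays apart and not 4. With the replicate number as a replicate block, 0 of 13 probe sets passed (smallest adjusted p = 0.871), and the deviations of equally numbered pools had r = 0.00 across 12422 probe sets and 0.17 across the 1463 bright ones. With 2 pairs and no label that ties them, the numbers were not taken to pair the pools. Quantile normalization, centring, other pseudocounts, a filter on dim probe sets and no intensity trend gave 0 calls as well. Over pseudocounts, scalings, the mean of all probe sets of a gene and the list without Mb, the median gap between the WT pools ran from 0.60 (mean of all probe sets) to 0.80 and that between the KO pools from -0.27 to -0.18. With 2 pools per genotype and no detection calls, values of the dim probe sets carry little information.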

Other observations

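Besides the 8 slow-fibre genes, 16 bright probe sets read at least 1.5 times as high in WT replicate 2 as in WT replicate 1, and 5 of them were higher in KO replicate 1 than in KO replicate 2, as 8 of the 9 slow-fibre genes were. Pla2g12a, a secreted phospholipase, had the largest ratio of them, 7.75-fold. Pttg1, which delays the separation of sister chromatids in mitosis, had 2.27-fold, and Idh2, of mitochondrial metabolism, 1.67-fold. These were named after their values were seen.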
